A study of Xiphophorus maculatus with 65 samples.

Results

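The expression of liver and skin was compared within 1 inbred strain of platyfish, *X. maculatus* JpB, in 8 of the 65 RNA-Seq libraries of the series, 4 of liver and 4 of skin, and every ratio below is liver over skin. The libraries were chosen by their labels alone, as those of 9-month JpB (strain Jp163 B) fish whose labels share 1 date. All 8 come from male fish that, per the labels, were left untreated. In each tissue 2 libraries carry the word 0min and 2 the word sham, which the labels give as names of controls. Livers 1, 2, 3 and 4 carry the fish labels 109.A, 109.C, 109.D and 109.E, and skins 30, 31, 32 and 33 carry 109.B, 109.C, 109.E and 109.F. Within a tissue each library thus has its own fish label, and 2 of the 6 fish labels, 109.C and 109.E, have both tissues. The series was made to set JpB against a second inbred strain, JpA, because backcross hybrids of the strains with *X. hellerii* differ in how they come to develop tumors. Its test of expression between the strains used skin, and the comparison of tissues within JpB follows from the sample labels.

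The liver makes most of the proteins of blood plasma, stores glycogen, builds and breaks down lipids and degrades surplus amino acids. The skin of a teleost is a living, mucus-covered epidermis of keratinocytes on a collagen-rich dermis that holds scales, which are thin bony plates, and pigment cells, with nerves, vessels and immune cells between them. In *Xiphophorus* the pigment cells of the skin are the source of the melanoma for which the genus is studied.

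Sequencing depth was alike in the tissues, with 83960180 to 97639817 counts per liver library and 83911090 to 95788350 per skin library. The counts were concentrated in fewer genes in liver, where the 10 most abundant genes took 27.6% to 31.2% of all counts, against 8.72% to 11.3% in skin. A level below is a scaled CPM, the counts per 1000000 counts of the library after TMM scaling. TMM is the edgeR method that lines libraries up on the bulk of their genes, and its factors were 0.418 to 0.506 in liver and 2.08 to 2.24 in skin. Libraries of the same tissue correlated at r = 0.972 to 0.994 (log2 CPM across genes) and libraries of different tissues at 0.536 to 0.559. No pair of libraries within a tissue was alike to within counting noise (chi-square over its degrees of freedom 49.7 to 224).

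Most genes differed between the tissues. Of 20645 genes tested with edgeR's quasi-likelihood test, 5144 (24.9%) were called higher in liver and 8147 (39.5%) higher in skin. A call asked for a Benjamini-Hochberg adjusted p under 0.05, a change of 1 or more on the log2 scale in either direction, and a ROC area, the chance that a library of one tissue exceeds one of the other, of 0.8 or more. The 4 livers did not overlap the 4 skins in 80.3% of all genes tested. A call or a lack of overlap is therefore the usual case, and the counts of gene groups below are read against these shares. Under TMM scaling the largest ratios were on the liver side, where 337 called genes reached a log2 fold change of 10, against 89 on the skin side. At a log2 of 4 the order was the other way, with 1246 called genes in liver and 3609 in skin. These counts depend on the scaling. Without it the liver gene *fgb* went from 11.98 to 9.78 and the skin gene *tp63* from -7.99 to -10.17.

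The balance of calls rested on the scaling. Without scaling beyond the library total, 1586 genes were called higher in liver and 16031 higher in skin, so that 9.0% of the calls were on the liver side in place of 38.7%. The median log2 fold change of all genes moved from -0.29 to -2.49, and 596 genes called higher in liver were then called higher in skin. Under all 5 scalings compared (TMM, none, upper quartile, the DESeq2 size factors and TMM without the 100 highest genes), 1586 genes (7.68%) stayed higher in liver and 8119 (39.3%) higher in skin. Leaving out the scaling moved genes toward skin, and all 8147 skin calls stayed. A skin call could thus hardly be lost by that step, and the limit of all 5 scalings bears mainly on the liver side. Counts of gene groups below are under TMM, with those under all 5 scalings beside them, except for the classes of gene models at the end. A fraction of a group is of its tested members only, and many listed symbols matched no gene model. For xenobiotic metabolism 8 of 36 symbols matched, for the secreted carriers 8 of 30 and for the keratinocyte and junction genes 17 of 53. In bulk tissue, fewer cells of a type and less RNA per cell cannot be told apart.

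**Figure D1:**
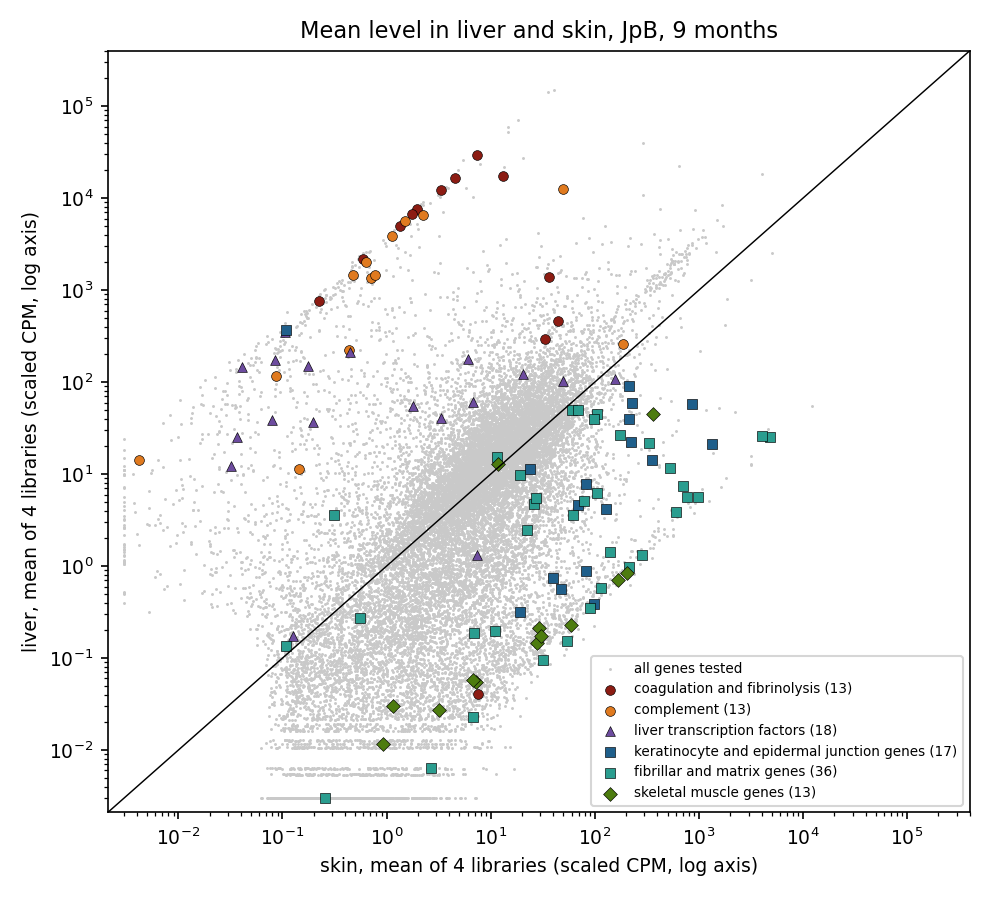
Mean level of each tested gene in the 4 skins (x axis) and the 4 livers (y axis), in scaled CPM on log axes, with means under 0.003 drawn at 0.003 and the line of equal level. Colored symbols are members of 6 gene groups. Coagulation genes other than *hgfac* and complement genes lie above the line. Matrix, keratinocyte and muscle genes lie mostly below it, and many of the most abundant genes of each tissue lie along an edge parallel to the line.

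The labelled tissues had the markers of their main cells. Of 10 hepatocyte symbols 7 matched a tested gene (*apob*, *fgb*, *fgg*, *serpinc1*, *f2*, *hnf4a* and *pah*), and all 7 were called higher in liver under all 5 scalings. Of the markers of skin cells, 4 of 10 keratinocyte symbols, 4 of 5 fibroblast symbols, 4 of 5 melanophore symbols and 4 of 4 scale and bone cell symbols matched. All of these were called higher in skin, except the bone phosphatase genes *phospho1* and *alpl*, which were called higher in liver with scaling but not without it and are described below. The keratin genes *krt5*, *krt8* and *krt18*, the muscle genes *acta1* and *ckm*, and all 4 erythrocyte symbols matched no gene model, so keratinocytes and muscle were judged on few of their markers and red blood cells on none.

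A low level of each tissue's genes was also counted in the other tissue. Summed over *fgb*, *fgg*, *serpinc1*, *f2* and *hnf4a*, which together averaged 29633 counts per 1000000 counts (unscaled CPM) in the JpB livers, the 4 skins held 25.5 to 55.9 unscaled CPM, or 0.0861% to 0.189% of the liver level, with skin 31 the highest. The 51 other skin libraries of the series held 0 to 65.5, with a median of 1.53. The 4 skins thus lay in the upper part of that range, and 2 of the other libraries, both JpB skins of 9 months, were above all 4. Summed over the skin genes *col1a1*, *col1a2*, *postn*, *tp63* and *neb*, which averaged 21749 unscaled CPM in the 4 skins, the JpB livers held 23.1 to 32.4, or 0.106% to 0.149% of the skin level. The source of these counts was not tested. Of 288 called liver genes with a mean of at least 1000 scaled CPM, 91 (31.6%) lay within 1 log2 of the largest ratio, 12.23. On the skin side 71 of 270 called genes with a mean of at least 100 scaled CPM (26.3%) lay within 1 log2 of the largest, 8.44.

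**Figure D2:**
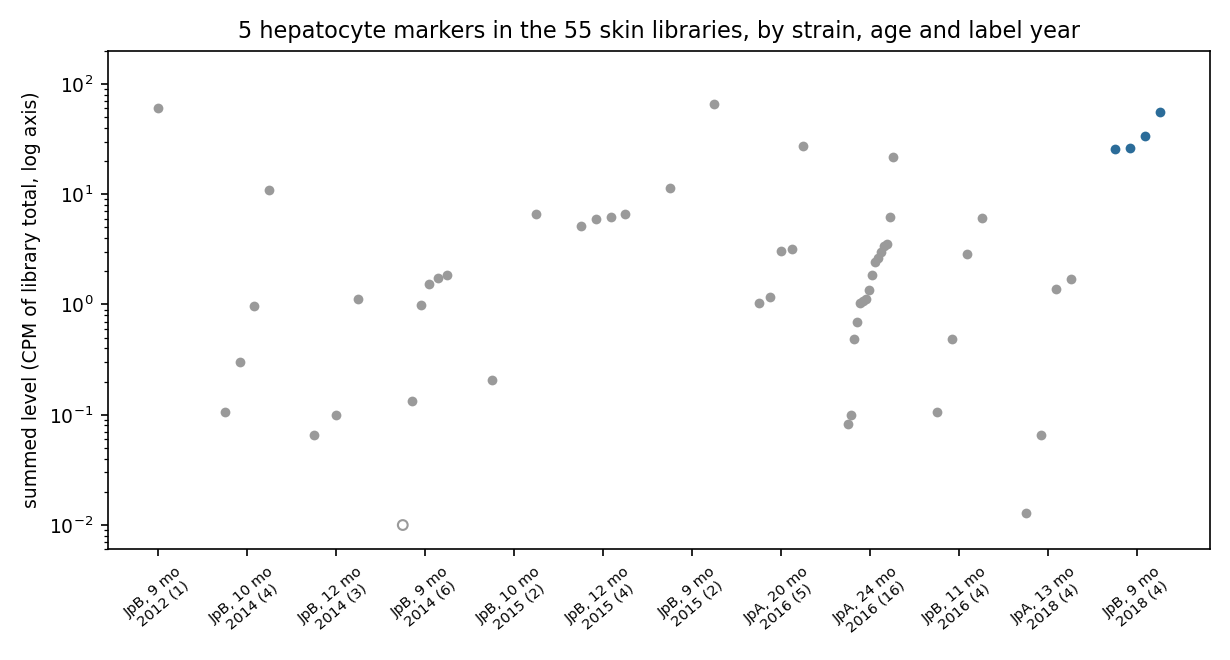
Summed level of *fgb*, *fgg*, *serpinc1*, *f2* and *hnf4a* in each of the 55 skin libraries of the series, in CPM of the library total on a log axis, by strain, age and year of the label with the number of libraries in brackets. The 4 skins compared with liver (blue) lie between 25.5 and 55.9, and the open circle is a library at 0, drawn at the bottom.

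Genes of coagulation and of complement, plasma proteins that the liver secretes, had the largest medians of the 33 gene groups compared. Of 13 genes of coagulation and fibrinolysis 12 were called higher in liver (11 under all 5 scalings), and the median log2 fold change of the 13 was 11.82. *fgb*, which encodes the beta chain of fibrinogen, the precursor of the fibrin clot, lies on chromosome 14 from 22557761 to 22563145. It stood at 27235, 34495, 26957 and 30313 scaled CPM in livers 1 to 4 and at 7.35, 10.6, 5.93 and 5.47 in skins 30 to 33. Skin 31 was the highest skin and liver 2 the highest liver, and the groups lay far apart (log2 fold change 11.98, SE 0.39, adjusted p = 5.28e-10). Its neighbor *fga*, for the alpha chain, on chromosome 14 from 22534633 to 22553924, had a lower ratio (10.37), with 14.4, 15.3, 11.7 and 11.6 scaled CPM in the skins, and *fgg*, for the gamma chain, had one of 11.86. *f2*, the gene of prothrombin, had levels of 17136, 18540, 13750 and 16823 in liver and 4.46, 8.17, 2.96 and 2.72 in skin. Here too skin 31 was the highest skin, and the ratio of 11.82 was close to that of *fgb*. *plg* (plasminogen, 11.93), *serpinc1* (antithrombin, 11.87) and *kng1* (kininogen, 11.91) had similar ratios.

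The exception among the coagulation genes was *hgfac*, which encodes the protease that activates hepatocyte growth factor and is made by the liver in mammals. It was at 0.0637, 0, 0.0219 and 0.0771 scaled CPM in the livers and at 7.43, 6.36, 8.18 and 8.59 in the skins. All 4 skins were above all 4 livers (log2 fold change -7.51, SE 0.37, adjusted p = 8.44e-09).

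Of 13 complement genes 12 were called higher in liver, also under all 5 scalings, with a median of 10.90. *c5* (11.85) and *c9* (11.52), components of the terminal pathway that opens pores in target membranes, were near the top of the range. *cfh*, for the soluble inhibitor factor H, was at 11622, 13549, 11650 and 13263 in the livers. It was also well measured in every skin, at 48.7, 49.6, 50.5 and 49.8, and the 4 skins were closer to each other than the livers were (log2 fold change 7.98, SE 0.21). *c6*, another gene of the terminal pathway, was the member that was not called. Its levels overlapped, at 294, 220.5, 278 and 243 in the livers and 219, 230.0, 130.2 and 165 in the skins, with a log2 fold change of 0.48 (adjusted p = 0.0325) that turned to -1.71 without scaling.

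Of 16 genes of apolipoproteins and lipid transport 13 were called higher in liver and none higher in skin (12 under all 5 scalings, median 8.89). *apoc1*, for a small apolipoprotein of circulating lipoproteins, was at 19479, 22348, 21806 and 23331 in the livers and 14.4, 20.6, 9.67 and 9.07 in the skins. The skins differed among themselves by more than the livers, yet the groups were far apart (log2 fold change 10.66, SE 0.41). *apob*, for the backbone protein of those particles, had a ratio of 9.49, and *mttp*, for the protein that loads lipid onto it, one of 9.08. The lipase gene *lipc* (11.71) was near the top and the LDL receptor gene *ldlr* lower (5.27).

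Of 8 other secreted carriers and inhibitors 7 were called higher in liver (5 under all 5 scalings, median 5.17). *rbp4*, for the carrier of retinol, had a ratio of 5.21 and vitronectin (*vtn*) one of 6.13. *igf1*, for the growth factor that the liver releases under growth hormone, was at 1054, 809, 732 and 764 in the livers and at 2.04, 4.02, 3.68 and 3.41 in the skins. Liver 1 was the highest liver and skin 30 the lowest skin (log2 fold change 8.00, SE 0.28, adjusted p = 8.09e-10). *igfbp2*, for a binding protein of insulin-like growth factors, was the member called higher in skin, at 1.81, 1.59, 2.40 and 1.42 in the skins and 0, 0.0504, 0.0437 and 0 in the livers (log2 fold change -6.21).

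The transcription factors that define hepatocytes were higher in liver as well. Of 18 listed genes 15 were called higher in liver (12 under all 5 scalings) with a median of 6.22. *hnf4a*, a nuclear receptor required for hepatocyte identity, was at 176, 157, 122 and 136 in the livers and at 0.0508, 0.0677, 0.0292 and 0.0142 in the skins. No skin reached 0.1 scaled CPM (log2 fold change 11.84, SE 0.33, adjusted p = 1.96e-10). *nr1h4*, the bile acid receptor (11.73), *foxa2*, a pioneer factor of the endoderm (11.00), and *gata6* (8.93) were also high in liver. *cebpa*, which in mammals drives liver metabolic genes, was not called. Its level was lower in every liver (88.3, 127, 113 and 109) than in every skin (142, 150.1, 170.0 and 168), with a log2 fold change of -0.53 (adjusted p = 0.00309). *tbx3*, a repressor with roles in early liver growth, was called higher in skin (-2.46).

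Genes of amino acid breakdown were higher in liver in most cases, and those of the start of the urea cycle were not. Of 46 genes 38 were called higher in liver and 3 higher in skin (26 and 3 under all 5 scalings, median 4.26), and 6 changed sign without scaling. *pah*, which turns phenylalanine into tyrosine, was at 3728, 3054, 2928 and 3446 in the livers and 95.4, 81.3, 45.2 and 44.0 in the skins. Skins 30 and 31, labelled 0min, were above skins 32 and 33, labelled sham, and all 4 were far below the livers (log2 fold change 5.63, SE 0.31, adjusted p = 2.46e-08). *agxt*, for the enzyme that detoxifies glyoxylate, had levels of 6489, 5692, 3961 and 4288 in the livers and a ratio of 11.80. *tdo2* (11.16) and *hal* (10.27), which open the breakdown of tryptophan and histidine, had ratios above 10, and *tat* (6.30), for the aminotransferase of tyrosine, was lower on this scale.

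The 3 genes called higher in skin are those of the mitochondrial steps of the urea cycle. In mammals the liver runs this cycle, while most adult teleosts excrete ammonia. *cps1*, for carbamoyl phosphate synthetase, had no count in any liver and stood at 1.55, 1.12, 0.403 and 0.283 scaled CPM in the skins, at least 45.5-fold higher when the livers are set to a floor of 3 counts over the group (adjusted p = 6.68e-04). *otc*, for the next enzyme, had no count in any liver either and stood at 0.677, 0.661, 0.768 and 0.468 in the skins, at least 36.6-fold higher (adjusted p = 1.81e-05). *nags*, whose product activates the first step, was at 0.106, 0.429, 0.0219 and 0.0514 in the livers and 13.8, 11.3, 8.72 and 6.70 in the skins (log2 fold change -6.09, SE 0.53). Levels of the first 2 were low in skin as well, and *cps1* was higher in both 0min skins than in both sham skins. The later, cytosolic steps were not called, with log2 fold changes of -0.59 for *ass1* (adjusted p = 0.0377) and -0.27 for *asl* (adjusted p = 0.0897). Without scaling these fell to -2.78 and -2.48.

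Of 20 genes of glucose and glycogen 17 were called higher in liver and 2 higher in skin (13 and 2 under all 5 scalings, median 4.21). *gapdh*, the glycolytic enzyme that is often used as a reference gene, was at 21686, 26586, 19988 and 21112 in the livers and 784, 583, 722 and 475 in the skins (log2 fold change 5.12, SE 0.26, adjusted p = 1.15e-08). It was higher in every liver by more than the spread of either group. *slc2a2*, for the glucose transporter of hepatocytes, was at 629, 906, 1002 and 1138 in the livers and 0.276, 0.333, 0.287 and 0.383 in the skins, a ratio of 11.48 (SE 0.29). *g6pc*, for the enzyme that releases free glucose, was at 506, 462, 400.1 and 1130 and had one of 11.06, with liver 4 well above the others. The gene of liver glycogen phosphorylase (*pygl*, 4.46) and the enolase gene *eno1* (4.08) were also higher in liver. *gys1*, the glycogen synthase of muscle and other tissues (-1.72), and *ldhb*, a lactate dehydrogenase chain (-6.95), were the 2 genes higher in skin.

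Of 22 genes of sterol synthesis 19 were called higher in liver and 1 higher in skin (12 and 1 under all 5 scalings, median 3.91). *msmo1*, for an oxidase that removes methyl groups from the sterol ring, was at 1685, 1540, 1654 and 2101 in the livers and 5.52, 5.32, 5.77 and 6.97 in the skins (log2 fold change 8.21, SE 0.20, adjusted p = 1.20e-10). Liver 4 was the highest liver and skin 33 the highest skin, and the groups lay far apart. *sqle*, for the enzyme that turns squalene into its epoxide, had a ratio of 7.70.

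Of 14 genes of fatty acid synthesis and storage 10 were called higher in liver and 2 higher in skin (7 and 2 under all 5 scalings, median 2.95). The elongase gene *elovl6* (6.49), the triglyceride synthesis gene *dgat2* (7.58) and *g0s2*, an inhibitor of lipolysis (8.89), were high in liver. *fasn*, for fatty acid synthase, was at 2.17, 1.92, 16.6 and 17.5 in the livers and 27.4, 32.9, 36.1 and 33.0 in the skins. Livers 1 and 2 were the lowest, livers 3 and 4 came closer to the skins, and the groups did not overlap (log2 fold change -1.76, SE 0.62, adjusted p = 0.0206). This call was lost in a test against a log2 of 1 (adjusted p = 0.0839) and in the 4 libraries of fish with 1 tissue only (adjusted p = 0.109). *lpin1*, a phosphatidate phosphatase, was the other one (-2.90). Of 24 genes of fatty acid oxidation 22 were called higher in liver, but only 6 under all 5 scalings, and 7 changed sign without scaling (median 2.47). The thiolase gene *acaa1* (3.85) was among the 6. *acsl1*, for an enzyme that activates fatty acids, was called higher in skin, at 42.2, 35.9, 32.2 and 30.3 in the skins and 3.57, 6.78, 3.96 and 3.24 in the livers (adjusted p = 3.13e-07).

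Bile acid genes were higher in liver in 7 of 10 cases (6 under all 5 scalings, median 3.45), with *hsd17b4*, a peroxisomal enzyme of side chain shortening, at 5.01. The uptake transporter gene *slco2b1* was the one called higher in skin (-1.11). All but 1 of 8 genes of xenobiotic metabolism were called higher in liver (5 under all 5 scalings, median 3.75), *ephx2*, an epoxide hydrolase, with a ratio of 5.78. Of 15 genes of iron and heme 12 were higher in liver and 2 higher in skin (6 and 2 under all 5 scalings, median 2.60). The genes *tfr2* (10.08) and *tmprss6* (11.64), which act in the control of hepcidin, had large ratios, and *hmox1*, for the enzyme that degrades heme, was higher in skin (-2.13). *hamp*, the gene of the iron hormone hepcidin, was at 14.1, 9.33, 20.6 and 7.07 in the livers and 1.71, 0.886, 1.48 and 2.03 in the skins (log2 fold change 3.06, SE 0.36). Without scaling its ratio of 0.89 fell short of a call.

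Of 14 genes that handle thyroid and steroid hormones 7 were higher in liver and 4 higher in skin (5 and 4 under all 5 scalings, median 0.84), and the deiodinases went both ways. *dio1* and *dio2*, for the deiodinases that can make the active hormone, were higher in liver, *dio1* at 122, 155, 160.2 and 167 against 2.69, 2.99, 2.36 and 1.81 (log2 fold change 5.94, SE 0.20) and *dio2* with a ratio of 5.26. *dio3*, for the deiodinase that inactivates it, had no count in any liver and stood at 0.361, 0.587, 0.729 and 1.15 in the skins, at least 41.6-fold higher (adjusted p = 1.07e-04). *shbg*, for the plasma carrier of sex steroids, was a liver gene (10.39). *esr1*, the estrogen receptor that drives yolk protein genes in the liver of egg-laying vertebrates, was at 23.2, 27.0, 37.7 and 36.6 in these male livers and 0.637, 1.38, 0.928 and 1.02 in the skins (log2 fold change 4.97, SE 0.26). Of the 14 symbols listed for egg proteins and sex steroid receptors, 2 matched a tested gene, the receptors *esr1* and *ar*. Both were called higher in liver, 1 of them under all 5 scalings, and no egg protein gene was tested.

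3 groups of general cell machinery were higher in liver under TMM, mostly by an amount that the choice of scaling could undo. Of 45 genes of the secretory pathway 35 were called higher in liver and none higher in skin, but 3 under all 5 scalings, and 15 changed sign without scaling (median 1.98). *p4hb*, a disulfide isomerase and subunit of the collagen-modifying prolyl hydroxylase, was one of the 3, at 2331, 3357, 3220 and 3063 in the livers and 182, 195, 228 and 235 in the skins (log2 fold change 3.83, SE 0.18). The chaperone gene *hsp90b1* had 1.13, which turned to -1.09 without scaling and fell under the fold limit without liver 2 (0.99) or skin 30 (0.94). Of 25 nuclear genes of oxidative phosphorylation and the citrate cycle 21 were higher in liver and 2 under all 5 scalings (median 2.00), and *atp5f1b*, the beta subunit of ATP synthase, went from 2.50 to 0.30. Of 26 peroxisome genes 19 were higher in liver and 5 under all 5 scalings (median 1.62), among them *cat*, for catalase, at 2187, 2438, 2297 and 2426 against 53.8, 47.3, 42.8 and 41.6 (log2 fold change 5.66, SE 0.16). *gnpat*, which starts plasmalogen synthesis, was higher in skin (-1.39).

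**Figure D3:**
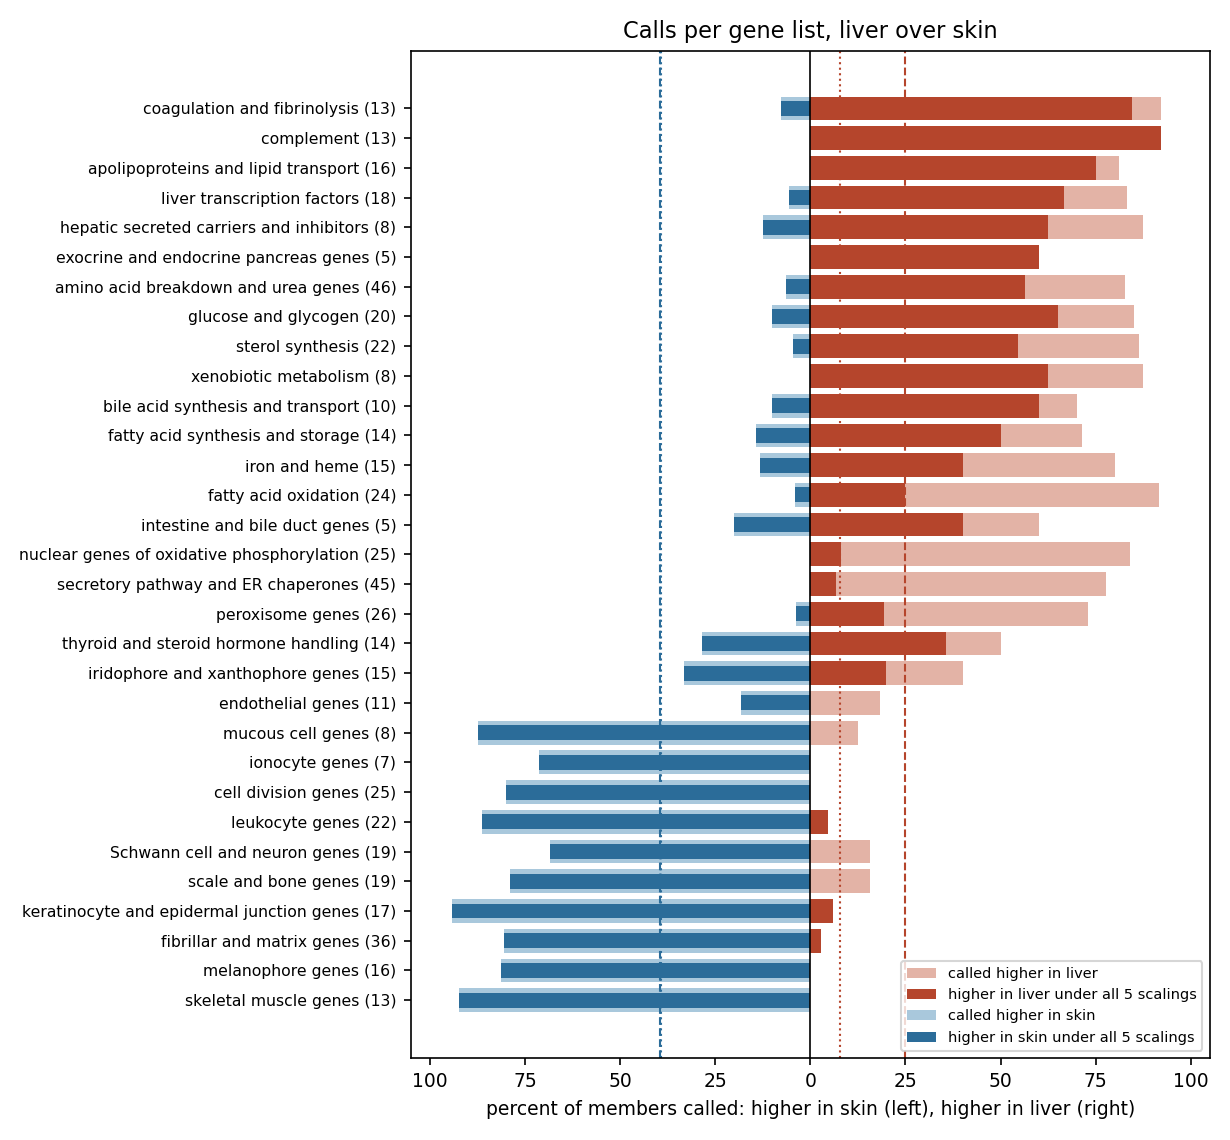
Percent of the tested members of 31 gene groups (number in brackets) called higher in skin, to the left, and higher in liver, to the right. Pale bars are calls under TMM, dark bars calls under all 5 scalings, and the dashed lines mark the shares of all genes tested that were called under TMM (39.5% and 24.9%) and the dotted lines those under all 5 scalings (39.3% and 7.68%). The bars of the skin groups hardly change with the scaling, while those of the secretory, oxidative phosphorylation and peroxisome groups shrink to 3 of 45, 2 of 25 and 5 of 26 members. Leaving out the scaling moved genes toward skin, so skin calls could hardly be lost by it.

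On the skin side, the epidermis came first. Of 17 matched keratinocyte and junction genes 16 were called higher in skin, also under all 5 scalings, with a median of -3.92. *tp63*, the transcription factor of the basal epidermis, was at 0.361, 0.353, 0.524 and 0.309 in the livers and 92.3, 102, 99.2 and 103 in the skins. The 4 skins were within a narrow range, far above every liver (log2 fold change -7.99, SE 0.16, adjusted p = 8.44e-11). *itgb4*, for the integrin that anchors basal cells, was at 50.3, 62.2, 54.6 and 64.4 in the livers and 866, 948, 858 and 796 in the skins (log2 fold change -3.91, SE 0.14). *anxa1* (-5.96), *epcam* (-4.63) and the plaque proteins *ppl* (-3.33) and *dsp* (-1.27) were also higher in skin.

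The exception was *cldn1*, for claudin 1, a protein of tight junctions that mammals have in both epidermis and liver. It was at 427, 369, 361 and 330.0 in the livers and 0.0677, 0.175, 0.107 and 0.0850 in the skins. No skin came near any liver (log2 fold change 11.73, SE 0.30, adjusted p = 1.27e-10), and the ratio was of the size of those of *fgb* and *hnf4a*. Many abundant liver genes had ratios near this size, and the source of their counts in skin was not tested. Whether this gene model is the counterpart of the mammalian gene was not tested.

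Of 8 genes of mucous cells 7 were called higher in skin (7 under all 5 scalings, median -1.69). *fcgbp*, a component of mucus (-6.98), had a large ratio, and *spdef*, a transcription factor of goblet cells, held 1 count in the 4 livers against 1.56, 2.00, 2.05 and 1.94 scaled CPM in the skins. *xbp1*, for a factor of the secretory stress response that is in both lists, was higher in liver (1.83) but turned to -0.36 without scaling. It took so large a share of the group's counts that the summed level of the 8 genes was higher in liver (303 to 457 scaled CPM) than in skin (165 to 214), against the sign of the median. Ionocyte genes were called higher in skin in 5 of 7 cases (5 under all 5 scalings, median -1.69), and *foxi3*, the factor that specifies these ion-pumping cells in fish, was at 0.0637, 0, 0.0874 and 0.0771 in the livers and 7.86, 12.6, 7.40 and 7.24 in the skins (log2 fold change -7.21, SE 0.41).

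Collagens and other matrix genes filled the dermal side of the comparison. Of 36 genes 29 were called higher in skin and 1 higher in liver, both under all 5 scalings, with a median of -5.34. *col1a1*, for the main chain of type I collagen, lies on chromosome 16 from 25314292 to 25336578. It was at 27.6, 24.9, 26.6 and 22.1 in the livers and at 2524, 5010, 7378 and 4379 in the skins. The livers were close to each other, while skin 32 was far above skin 30 (log2 fold change -7.57, SE 0.37, adjusted p = 8.18e-09). *col1a2*, for its partner chain, had a ratio of -7.30 and *col6a1* one of -7.29. *postn*, for periostin, a matrix protein of fibroblasts, was at 6.12, 4.74, 5.99 and 5.48 in the livers and 764, 892, 1195 and 1067 in the skins (log2 fold change -7.45, SE 0.21). *col9a3*, for a chain of a cartilage collagen, was the gene higher in liver (3.53), at 2.59, 3.76, 4.76 and 3.29 against 0.462, 0.119, 0.345 and 0.312.

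Scale and bone genes were higher in skin in 15 of 19 cases, also under all 5 scalings (median -3.64). *sp7*, the master factor of osteoblasts, was at 0.170, 0.0504, 0.262 and 0.180 in the livers and 19.3, 25.3, 27.1 and 26.9 in the skins (log2 fold change -7.18, SE 0.27, adjusted p = 1.10e-09). *dlx5*, another osteoblast factor, had a ratio of -7.64. *tnfrsf11b*, for osteoprotegerin, an inhibitor of osteoclasts, held 2 counts in the 4 livers and stood at 9.43, 8.02, 7.96 and 7.74 in the skins. The 3 genes called higher in liver were *phospho1* and *alpl*, phosphatases of mineralization, and the ligand gene *bmp2*. *phospho1* was at 71.8, 190.0, 131 and 92.3 in the livers and 22.5, 23.8, 26.2 and 22.1 in the skins, a log2 fold change of 2.36 that was 0.14 without scaling. Those of *alpl* and *bmp2*, 1.64 and 1.73, turned to -0.55 and -0.48.

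Of 16 melanophore genes 13 were called higher in skin and none higher in liver, also under all 5 scalings, with a median of -6.75. *mlana*, for a melanosome protein, was at 0.255, 0.202, 0.0219 and 0.0514 in the livers and 17.3, 14.6, 14.5 and 15.6 in the skins (log2 fold change -6.85, SE 0.35). *tyr*, for the first enzyme of melanin synthesis, held 1 count in the 4 livers against 4.10, 3.39, 3.80 and 3.31 scaled CPM in the skins. *mc1r*, for the receptor of melanocyte-stimulating hormone, had no count in any liver and was at 0.716, 0.920, 0.758 and 0.505 in the skins, at least 40.9-fold higher (adjusted p = 1.81e-05). *sox10*, the neural crest factor of these cells, had a ratio of -7.40.

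The 15 genes of iridophores and xanthophores went both ways, with 6 higher in liver and 5 higher in skin (3 and 5 under all 5 scalings, median 0.62). Of the 6, 5 are enzymes of purine and pteridine metabolism and 1 is a transporter. *gch1*, the first enzyme of pteridine synthesis, was at 731, 927, 611 and 722 in the livers and 2.13, 2.25, 1.29 and 1.20 in the skins (log2 fold change 8.77, SE 0.31, adjusted p = 8.34e-10). *spr* (5.03) and *pts* (2.92), the next enzymes, *xdh* (5.73), which oxidizes purines, and *ppat* (2.68), which starts their synthesis, were also higher in liver. Without scaling *pts* (0.72) and *ppat* (0.49) fell short of a call. *slc2a11*, a sugar transporter of xanthophores in fish, had a ratio of 2.12, which was -0.09 without scaling. The transcription factors *pax7* (-7.23), *pax3* (-7.03) and *tfec* (-3.14) were among the 5 higher in skin.

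**Figure D4:**
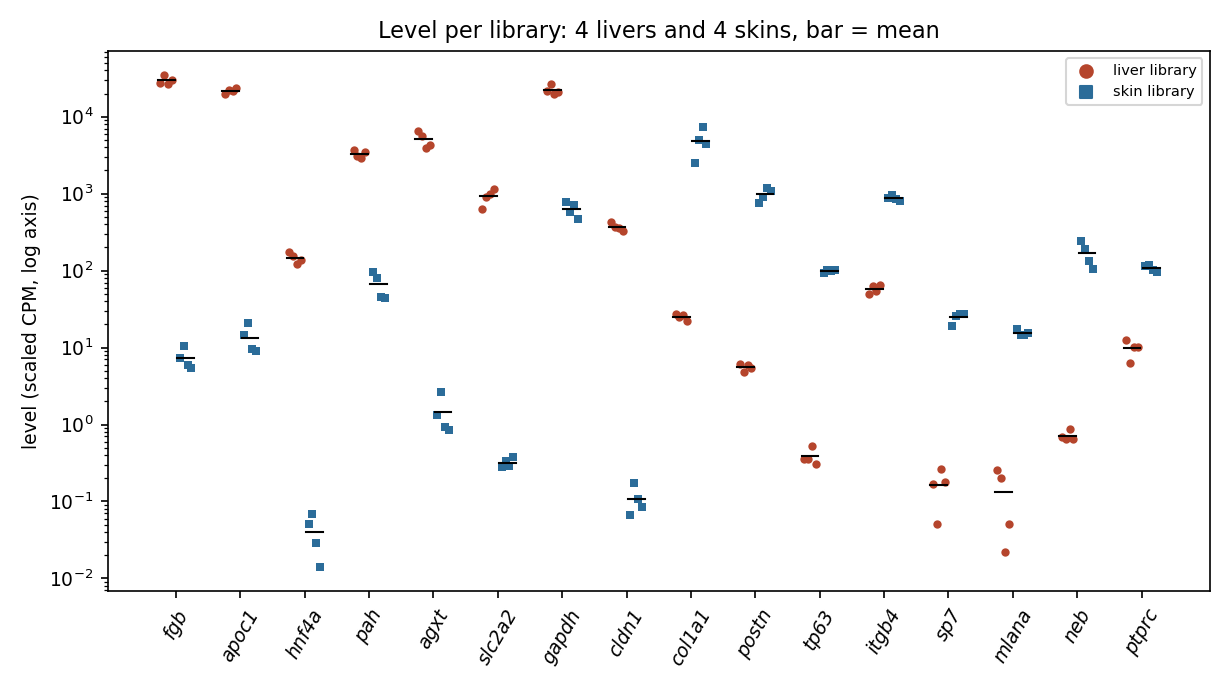
Level of 16 genes in each library, in scaled CPM on a log axis, with livers as red circles, skins as blue squares and a bar at each mean. The 8 genes from *fgb* to *cldn1* are higher in all 4 livers and the 8 from *col1a1* to *ptprc* higher in all 4 skins, without overlap in any of the 16.

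Skin also carried muscle, nerve and immune genes. Of 13 skeletal muscle genes 12 were called higher in skin, also under all 5 scalings, with a median of -6.94. *neb*, for the giant thin filament protein nebulin, was at 0.680, 0.656, 0.874 and 0.643 in the livers and 243, 191, 132 and 105.2 in the skins (log2 fold change -7.87, SE 0.32). The summed level of the 13 genes was 1253 in skin 30, 1004 in skin 31, 765.8 in skin 32 and 635.7 in skin 33. This sum covers 13 of 38 listed symbols, and its largest part was *tpm1*, with a mean of 366 in skin and 45.4 in liver. Of 19 Schwann cell and neuron genes 13 were higher in skin and 3 higher in liver (13 and none under all 5 scalings, median -2.76). The myelin gene *pmp22* was higher in skin (-2.23). *mpz*, for the main protein of peripheral myelin, was at 132, 143, 105.9 and 129 in the livers and 69.9, 93.1, 76.0 and 60.6 in the skins, under the fold limit (0.77, adjusted p = 5.93e-04), and turned to -1.43 without scaling. The 3 neuronal genes higher in liver, *stmn2* (3.18), *elavl4* (2.65) and *syt1* (1.12), were at under 3 scaled CPM in every library, and *syt1* turned to -1.07 without scaling. The first 2 were then no longer called, and neither was *syt1* without liver 1 (0.99) or with a replicate block in the 2 fish with both tissues (0.78, adjusted p = 0.208).

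Of 22 leukocyte genes 19 were called higher in skin and 1 higher in liver, also under all 5 scalings (median -2.58). *ptprc*, for the pan-leukocyte antigen CD45, was at 12.4, 6.38, 10.1 and 10.2 in the livers and 116, 119.8, 103 and 95.7 in the skins. Liver 2 was the lowest liver, and the groups did not overlap (log2 fold change -3.48, SE 0.19, adjusted p = 2.46e-08). *cd74*, for the invariant chain of antigen presentation, had a ratio of -2.24, and *lyz*, for lysozyme, was the gene higher in liver, at 634, 779.9, 716 and 687 against 32.6, 32.0, 24.4 and 30.1 (log2 fold change 4.56, SE 0.15). Of 11 endothelial genes 2 were called in each direction, none in liver and 2 in skin under all 5 scalings, and the median of 0.14 was -2.05 without scaling. Of 2 tested erythrocyte genes 1 was higher in skin, also under all 5 scalings. Of 25 cell division genes 20 were called higher in skin and none higher in liver, also under all 5 scalings, with a median of -2.19. *top2a* was at 0.892, 0.832, 3.91 and 1.54 in the livers and 9.20, 15.8, 14.7 and 17.2 in the skins (log2 fold change -2.98, SE 0.44). Liver 3 was the highest liver in this gene and in *mcm2*, a subunit of the replication helicase, at 0.956, 1.34, 4.85 and 1.77 (log2 fold change -3.06).

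The genes that took the most counts in liver mostly have no symbol. LOC102220007 (log2 fold change 11.87) and LOC102219966 (11.96) came first, the former at 130850, 194420, 128500 and 151130 scaled CPM. They were at 37.9, 66.1, 30.7 and 26.9 and 35.1, 53.1, 28.3 and 25.8 in the skins. In skin LOC102228361 came first, at 12544, 13410, 11790 and 11004 against 63.4, 57.4, 48.0 and 49.0 in the livers (log2 fold change -7.81, SE 0.23). *actb*, for cytoplasmic beta actin, came second in skin, at 5006, 5902, 4607 and 4781 against 2349, 2243, 2939 and 2501 in the livers. Its ratio of -1.02 (SE 0.17) was at the fold limit, and the call was lost with a replicate block in the 2 fish with both tissues (-1.15, adjusted p = 0.0928), without liver 2 (-0.97) and without skin 31 (-0.94).

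Among genes with a symbol other than a LOC number and at least 10 scaled CPM in the higher tissue, *myrfl* had the largest liver ratio, 12.44, at 56.7, 67.3, 60.9 and 69.0 in the livers and 0, 0.0226, 0.00972 and 0.00945 in the skins. *nipsnap1* (12.10), for a mitochondrial protein, and *cdh17* (11.99), for a cadherin of liver and intestine, were also among the 10 largest. *fabp2*, the fatty acid binding protein of enterocytes in mammals, was at 463, 467, 467 and 618 in the livers (ratio 10.96). Of the 5 tested genes of the intestine and bile duct list, 3 were higher in liver and *epcam* higher in skin (2 and 1 under all 5 scalings, median 2.15, or -0.03 without scaling). On the skin side *entpd5*, a nucleotide phosphatase needed for mineral in zebrafish, held 1 count in the 4 livers and was at 2.70, 22.1, 12.1 and 8.51 in the skins. *panx3*, for a channel of bone and skin cells, was at 14.0, 18.9, 23.4 and 20.5 in the skins and 0, 0.0504, 0.0437 and 0 in the livers.

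Some genes varied widely between the 4 livers. *gck*, for glucokinase, the insulin-induced enzyme that traps glucose in hepatocytes, was at 0.637, 5.42, 238 and 51.4 scaled CPM in livers 1 to 4 and at 0.0169, 0.0452, 0.0437 and 0.0472 in the skins. The sham livers 3 and 4 were above the 0min livers 1 and 2, and the ratio carried a wide error (log2 fold change 10.86, SE 1.86, adjusted p = 2.41e-04). With a replicate block by fish in limma the ratio was 8.50 and the call was lost (adjusted p = 0.0838). LOC102235901, at 88.7, 109, 1766 and 1125 in the livers, *elovl6*, at 73.2, 107, 459.5 and 348, and *fasn* were also higher in both sham livers than in both 0min livers. *sqle*, the gene of sterol synthesis named above, was at 33.9, 102, 132 and 236, with liver 1 the lowest.

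Both sham livers were above both 0min livers in 15 of 22 sterol synthesis genes (68.2%) and 8 of 14 genes of fatty acid synthesis and storage (57.1%), against 20.6% of all genes tested. The share was 25.0% in the glucose group, 32.6% in the amino acid group and 7.69% in the coagulation and complement groups. Both sham livers were below both 0min livers in 4.55% of the sterol genes, 14.3% of the fatty acid genes, 30.0% of the glucose, 39.1% of the amino acid, 30.8% of the coagulation and 38.5% of the complement genes, against 21.2% of all genes. The labels call both words controls, and this comparison of 2 livers with 2 was not tested.

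Genes of the pancreas were counted in liver, with liver 3 apart. In many teleosts exocrine pancreas lies within or along the liver. *cpb1*, for the digestive enzyme carboxypeptidase B, was at 359.9, 644, 21.2 and 243 in the livers and 1.06, 0.920, 0.433 and 0.435 in the skins (log2 fold change 8.80, SE 0.99, adjusted p = 8.70e-06). Liver 3 was the lowest by a wide margin and still above every skin. *pdx1*, the factor of pancreas and duodenum, was at 10.8, 10.4, 5.75 and 7.48 in the livers (8.05). LOC102217447 was at 195, 546, 12.9 and 200.3, LOC102217700 at 174, 369.7, 9.16 and 116 and LOC102236767 at 63.7, 103, 3.34 and 39.7, all with liver 3 lowest and liver 2 highest, as in *cpb1*. Of the 7 exocrine pancreas markers *cpb1* was the one that matched a gene model, and of the 5 tested genes of the longer pancreas list 3 were called higher in liver, also under all 5 scalings (median 4.92). Beside *cpb1* and *pdx1* these include *nr5a2* (4.92), which is also in the list of liver transcription factors. *rbpjl* (0.88, adjusted p = 0.157) and *gcg* (-1.96, adjusted p = 0.0677) were not called.

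**Figure D5:**
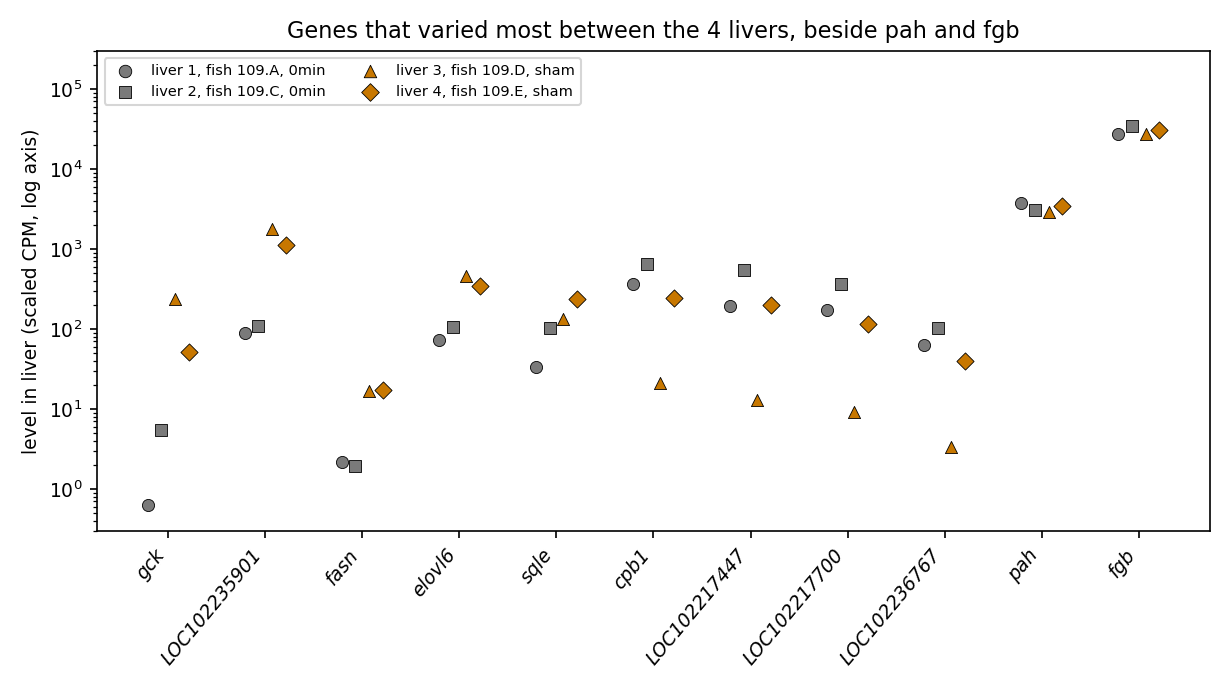
Level of 9 genes that varied between livers, with *pah* and *fgb* for comparison, in each of the 4 livers, in scaled CPM on a log axis, 0min livers in grey and sham livers in orange. *gck*, LOC102235901, *fasn* and *elovl6* are higher in both sham livers, *cpb1* and the 3 other LOC genes are lowest in liver 3, and *pah* and *fgb* hardly vary.

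In skin the spread was widest in other genes. LOC102220390 was highest in skin 30 and lowest in skin 33, as the muscle sum was, at 660.1, 452, 255 and 129.9 in skins 30 to 33, and LOC102233637 was at 97.6, 60.4, 23.1 and 29.4. LOC102234538 went the other way, at 33.5, 131, 176 and 123. LOC102225809 was at 196, 104.9, 25.6 and 40.4 in the skins and 21.5, 45.3, 21.1 and 16.9 in the livers, which overlapped (log2 fold change -1.81, SE 0.58). Its call was lost with a replicate block in the 2 fish with both tissues (-0.92, adjusted p = 1.07e-04, under the fold limit).

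The tissue difference was set against that of JpA fish of 20 months, of which the series holds 4 livers and 5 skins. Strain, age, label date, read length and depth differ together between the sets and cannot be told apart, and in JpA the 2 tissues also carry different dates. The mix of label words differs as well. The JpA livers carry Sham or 0min and the JpA skins Sham or 0pt, in unequal numbers, while each JpB tissue has 2 libraries of each word. The 5 JpA skins carry 3 fish labels, which recur among the JpA livers. In a model of both sets with an interaction term, 1532 of 20327 genes (7.54%) were called different at an adjusted p under 0.05 and a difference of at least 1 log2, with all libraries taken as independent. With JpA libraries of the same fish label and tissue summed, an alternative chosen after seeing the data, 1472 of 21717 were called. Of the 1532 genes, liver over skin was higher in JpB for 427 (2.1% of the 20327 tested) and lower for 1105 (5.44%). Leaving out 1 JpB library at a time left 510 to 1037 calls, with 1037 without liver 1, 981 without liver 3, 847 without skin 30, 755 without skin 33, 649 without liver 4, 603 without liver 2, 563 without skin 32 and 510 without skin 31. Without scaling there were 3310.

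Liver over skin was lower in JpB for the calcium channel gene *cacna1e*, at 0.0663 to 0.211 unscaled CPM in the JpB livers and 0.934 to 45.5 in the JpA livers (difference -7.96, SE 1.11, adjusted p = 0.00164). *asap2* (-2.17), *nebl* (-1.83), *mmp15* (-1.62) and *ltbp1* (-1.46) were lower by less. It was higher in JpB for *dapk2*, a death-associated kinase (2.27), *bfar* (1.80) and *sntg2* (1.70). The last 2 were higher in liver in both strains, with log2 fold changes of 4.35 in JpB and 2.47 in JpA for *bfar* and of 6.62 and 4.85 for *sntg2*. The log2 fold changes of *dapk2* and *mmp15* in JpB, 1.26 and 1.65, turned to -0.94 and -0.54 without scaling. *cldn11*, for a claudin of tight junctions, and *hoxb9*, a homeobox gene of the trunk, were called higher in JpB, with livers near 0 in both sets. The JpA livers held 0 or 1 count of *cldn11* and no count of *hoxb9*, and the JpB livers 24 to 47 and 9 to 15. Both are skin genes, with 27687 to 38973 and 7600 to 9829 counts in the JpB skins. The skin markers summed above stood in the JpB livers at 0.106% to 0.149% of their skin level. The part of such counts in the values of *cldn11* and *hoxb9* was not tested. With JpA fish of 13 months in place of those of 20 months, *hoxb9* (difference 0.34, adjusted p = 0.676) and *ltbp1* (difference -0.87) were no longer called. That set holds only 2 livers, beside 4 skins. Both livers carry JpB titles but the strain label of JpA, by which they were grouped. With it 1966 of 21867 genes were called different, with liver over skin higher in JpB for 844 and lower for 1122.

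By gene group, no member of the coagulation, complement and lipid transport groups was called different, and their medians were 11.82, 10.90 and 8.89 in JpB and 13.01, 11.46 and 8.65 in JpA. For sterol synthesis they were 3.91 and 2.48, with 4 of 22 members called higher in JpB. For melanophore genes they were -6.75 and -3.55, with 4 of 16 members called lower in JpB and 1 higher. For the matrix genes tested in both sets they were -5.51 and -3.91, with 8 of 35 lower and 1 higher. Leukocyte genes had -2.58 and -0.74, with 4 of 22 lower. Schwann cell and neuron genes tested in both sets had -3.27 and -1.10, with 6 of 17 lower, and endothelial genes 0.14 and 0.70, with 3 of 11 lower. The medians moved the other way for keratinocyte and junction genes (-3.92 and -4.35, with 2 of 17 higher and 1 lower) and skeletal muscle genes (-6.94 and -8.53, with 1 of 13 higher). The 5 skin markers summed to 1.35 to 90.4 unscaled CPM in the JpA livers (median 5.34), a wider range than the 23.1 to 32.4 of the JpB livers (median 26.4). The 5 hepatocyte markers summed to 1.03 to 27.2 in the JpA skins (median 3.08), against 25.5 to 55.9 in the JpB skins (median 30.0). The part of either sum in these differences was not tested. The part of the label words, whose mix differs between the sets, was not tested either.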

How the data were processed

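Liver and skin of male JpB fish were sequenced by the authors as poly-A RNA with the TruSeq mRNA kit, paired-end, on a HiSeq 2000, with 1 library per RNA sample. Reads were trimmed and filtered by custom scripts, aligned with TopHat2 to version 5.0 of the platyfish genome, and featureCounts gave the counts over NCBI gene models (versions not given in the sources used here). The deposited values are raw counts per gene, 27242 genes in each library, with no normalization by the authors. Strand use in counting is not given in the sources used here, so a gene and an overlapping antisense gene could not be separated, and reads of near-identical copies could be split or lost. Gene symbols, classes and positions were taken from the RefSeq table (X_maculatus-5.0-male), where each of the 27242 gene IDs was found.

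The fits were made with edgeR 4.0.16 under R 4.3.3. Genes were kept by filterByExpr (smallest count 10), libraries scaled by TMM, and liver over skin tested in the 8 libraries by the quasi-likelihood test with Benjamini-Hochberg adjustment over all 20645 genes. The limits of a call follow the study's own test between strains. The difference from JpA was an interaction term in a model of both sets. All libraries were taken as independent. In JpB, p-values measure the spread between libraries of different fish labels within a tissue. In JpA some skins share a fish label, so p-values of the difference from JpA may be too small. Alternatives were other scalings, DESeq2 1.42.0, limma 3.58.1 with fish as a block, a test against the fold limit, other filters and limits, the label word as a covariate, and leaving out each library. The fitting scripts were tested on simulated data, in which few genes changed, equally up and down, and the tissues otherwise shared their mean levels. The simulated data therefore could not test the scaling between tissues as unlike as these.

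Whether the 2 fish labels with both tissues pair the libraries was checked by the correlation of their deviations from the tissue means, which was -0.0012 for 109.C and 0.0303 for 109.E, against -0.0994 to 0.111 for pairs of other fish. The labels give these as the same fish, so the fits with a replicate block are reported where they change a call.

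The members and gene lists were chosen with earlier results of these data known. Named genes were the 10 called genes per direction with the highest mean and the 10 with a symbol and the largest fold change (with a mean from 10 CPM upward), up to 6 members of each list by mean level, list members called toward the other tissue, fixed markers, the 5 genes per direction with the smallest p of the difference from JpA, and the 5 per tissue with the largest spread (mean of at least 50 CPM). Outside this rule, 18 genes were chosen after their values were seen: *asl*, *ass1*, *c6*, *dio3*, *g6pc*, *hal*, *hamp*, *hmox1*, *hsp90b1*, *mc1r*, *pax3*, *pax7*, *slc2a2*, *spdef*, *sqle*, *tfec*, *tnfrsf11b* and *top2a*. A planned search of promoters for motifs was not analysed here, and some genes are not reported here. Data handling and figures used Python 3.11.15, pandas 2.3.3, numpy 2.4.6 and matplotlib 3.10.9.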

Additional observations from a re-analysis of the deposited data

Results flagged for a closer look

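In 20 of 296 groups of 4 libraries, that is a named gene in the livers or in the skins, 1 library stood apart from the other 3 by Dixon's test, where chance gives about 1 in 20. Among liver genes read in the skins, skin 31 was the highest for *plg* (3.34 scaled CPM), *serpinc1* (2.60), *tdo2* (2.42) and *g6pc* (0.610). It was also the skin with the highest sum of 5 hepatocyte markers, a sum that includes *serpinc1*. Skin 31 was the highest for *foxi3* too (12.6). Skin 30 was the highest for *tnfrsf11b* (9.43) and the lowest for *spr* (9.44, against a mean of 14.2 over the 4 skins). It was also the skin apart for *atp5f1b* (366) and for *gck* (0.0169), the latter a value that rests on few counts.

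Liver 4 was the highest liver for *g6pc* (1130.3) and *fabp2* (618), liver 1 for *hal* (1829.9), liver 2 for LOC102225809 (45.3) and liver 3 for *neb* (0.874) and *epcam* (22.2). Liver 1 was apart for LOC102234538 (0.765). The other values rest on few counts, at 0.126 for *pax3* in liver 2, 0.0219 for *entpd5* in liver 3, 0.0212 for *spdef* in liver 1 and 0.0257 for *tyr* in liver 4.

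The tissue difference of JpB at 9 months differed from that of JpA at 20 months in 1532 genes by the interaction term of edgeR. Of the genes named for the smallest p, *dapk2* (2.27), *bfar* (1.80), *sntg2* (1.70), *cldn11* (4.65) and *hoxb9* (6.84) had liver over skin higher in JpB. Those with liver over skin lower in JpB were *asap2* (-2.17), *cacna1e* (-7.96), *ltbp1* (-1.46), *mmp15* (-1.62) and *nebl* (-1.83). Genes named for other reasons were called different as well. Among these were LOC102217447 (5.84) and LOC102217700 (5.48), higher in JpB, and LOC102229978 (-3.72), lower in JpB. The values for *cldn11* and *hoxb9* depend on the prior count, since the JpA livers held 2 counts and 0 counts of them in all.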

How the results depend on the processing

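Without scaling 1586 genes were called higher in liver and 16031 higher in skin, a liver share of 9.0%, and 3310 genes differed from JpA. The count of 1532 differences from JpA also moved to 2722 with DESeq2, and fell when any 1 JpB library was left out. Under the other scalings, tests, filters and limits, counts of liver and skin calls stayed within 1.5 times those reported. Leaving out 1 library at a time gave 5059 to 5210 calls in liver, 8119 to 8386 in skin, a liver share of 37.6% to 39.0%, and 510 to 1037 differences from JpA. Without scaling the sign turned for *c6* (-1.71), *hsp90b1* (-1.09), *mpz* (-1.43), *syt1* (-1.07), *dapk2* (-0.94), *alpl* (-0.55), *mmp15* (-0.54), *bmp2* (-0.48), *xbp1* (-0.36) and *slc2a11* (-0.09), and *ass1* (-2.78), *cebpa* (-2.73) and *asl* (-2.48) were then called higher in skin.

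With a replicate block by fish, 5046 genes were called higher in liver and 7646 higher in skin in the 2 fish with both tissues (edgeR), and 5119 and 8233 in all 8 libraries (limma). The block ended the calls of *actb*, *gck*, LOC102225809 and *syt1* and changed no other of the 145 named results. With a test against a log2 of 1, *slco2b1* (-1.11, adjusted p = 0.0825), *actb*, *fasn*, *hsp90b1*, *nebl*, *syt1* and LOC102225809 were no longer called. Under upper quartile scaling *dapk2* had a log2 fold change of 0.96. The causes were not tested. Genes with fewer than 10 counts in a tissue have ratios limited by depth there, and levels near the other tissue's markers by the counts described above.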

Other observations

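Gene models of classes other than protein coding are described here, with no test beyond that of the single genes. Of 21 gene segments annotated as variable regions of immunoglobulins or T cell receptors, 17 were called higher in skin and 1 higher in liver, and of 21 constant regions 16 and 1. Their copies are alike in sequence, so the counts of single segments are uncertain. Of 14 ribosomal RNA models 13 were called higher in liver and 1 higher in skin, in libraries made by selecting poly-A RNA. Of 571 long noncoding RNAs 157 were called higher in liver and 274 higher in skin, and of 34 small nucleolar RNAs 1 and 6. Of all genes tested, 24.9% were called higher in liver and 39.5% higher in skin. The counts of these classes are under TMM alone. How many of their calls stay under the other scalings is not given, which bears mainly on the liver calls.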
